A study of Mus musculus with 4 samples.

Results

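The miRNAs of the imprinted Dlk1-Dio3 locus on mouse chromosome 12 were measured in vesicle preparations from the plasma of tumour-bearing mice. They were taken as every mature miRNA, from either arm of its hairpin, whose deposited position (GRCm38) fell inside the miRNA-bearing stretch of the locus and which was listed in all 4 libraries. This gave 112 miRNAs of 1809, from 59 hairpins, between 109563710 (start of miR-770-5p) and 109747949 (end of miR-3072-3p). A further 2, miR-496a-5p and miR-668-5p, lay in the window but were listed for pool 1 only and were left out.

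The mice were C57BL/6, either wild type (WT) or gp49B-/- (gp49B KO), which lack an inhibitory receptor of myeloid cells. All had received Lewis lung carcinoma (LLC) cells, from a lung tumour line of this strain, into a vein, and plasma was taken on day 21. The mRNA of the deleted gene is not among the small RNAs, so the genotype labels were not checked. No mouse without a tumour was analysed here. Each genotype had 2 libraries, called pool 1 and pool 2. A WT library pooled 3 plasma samples and a KO library 4, so the number of samples behind a library followed genotype, and the spread between libraries is a spread between pools. The sources used here state neither age nor sex.

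In this locus the protein-coding genes Dlk1, Rtl1 and Dio3 are expressed from the paternal chromosome, and a chain of noncoding RNAs (Meg3, the Rtl1 antisense transcript, Rian and Mirg) from the maternal chromosome. The miRNAs are cut from these noncoding RNAs. They are known for high levels in the embryo, placenta and brain, for roles in muscle and in growth after birth, and, for those opposite Rtl1, for directing cleavage of the Rtl1 mRNA. Liver and blood cells of adults are not known as rich sources of them.

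The mature sequences below are those the results turn on: some of the abundant miRNAs of the locus, the miR-136 pair and miR-377-3p, which had the lowest unadjusted p among members with a count above 0 in every library, and close relatives of miR-379-5p and miR-381-3p. They are from RefSeq (GRCm38.p6), which held 108 of the 112 at the deposited positions, and are written 5′ to 3′ with the seed, bases 2 to 8, in capitals. All lie on the plus strand.
miR-382-5p: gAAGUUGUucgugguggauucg
miR-379-5p: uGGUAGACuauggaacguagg
miR-1193-5p: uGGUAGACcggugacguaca
miR-411-5p: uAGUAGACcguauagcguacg
miR-434-3p: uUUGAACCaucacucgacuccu
miR-434-5p: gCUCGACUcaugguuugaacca
miR-127-3p: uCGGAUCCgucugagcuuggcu
miR-134-5p: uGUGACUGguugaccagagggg
miR-541-5p: aAGGGAUUcugauguuggucacacu
miR-381-3p: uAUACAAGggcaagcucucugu
miR-300-3p: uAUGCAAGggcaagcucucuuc
miR-409-3p: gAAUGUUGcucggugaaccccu
miR-485-3p: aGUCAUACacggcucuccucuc
miR-136-5p: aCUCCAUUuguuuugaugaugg
miR-136-3p: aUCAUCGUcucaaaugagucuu
miR-377-3p: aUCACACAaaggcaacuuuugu

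The 108 sequences held 100 distinct seeds, so most members do not share a seed with a neighbour. The seed of miR-379-5p is shared with miR-1193-5p, whereas miR-411-5p, the next hairpin along, carries G2A within it (positions from the 5′ end, miR-379-5p first). Likewise miR-300-3p differs from miR-381-3p by A4G in the seed and by G21U and U22C at the 3′ end. For 8 members another mature mouse miRNA lay within 2 edits, among them miR-411-3p and miR-379-3p, and miR-376b-5p and miR-376c-5p (G19U). How reads that fit either of such a pair were counted is stated in none of the sources used here, so counts of these members are uncertain.

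Values are unique molecular identifier (UMI) counts, in which copies of 1 tagged RNA molecule count once. The miRNA UMIs per library ranged from 1577749 to 3630249. Libraries of pool 1 had 5.29 and 5.70 reads per UMI and those of pool 2 had 1.69 and 2.11, and the smallest count above 0 in either pool 1 library was 10. Marker miRNAs differed strongly by pool number: the 5 liver markers made up 11.4% and 27.3% of the UMIs (WT, pools 1 and 2) and 7.49% and 20.3% (KO), and the 5 red blood cell markers 10.6% and 18.4% against 7.94% and 17.8%. The 4 skeletal muscle markers made up 0.404% and 0.428% of WT against 3.73% and 0.690% of KO, the 5 stromal markers 1.96% and 1.02% against 2.97% and 1.25%, the 4 platelet and myeloid markers 2.49% and 1.33% against 5.11% and 1.29%, and the 6 neural markers 0.284% and 0.125% against 0.304% and 0.114%. Of these lists, only the skeletal muscle one had both KO shares above both WT shares, and no marker of any list was listed at 0. Within the neural list miR-128-3p, which other tissues also express, held most of the UMIs, with 4037 and 3544 in the WT libraries and 4832 and 3757 in the KO libraries. The other neural markers were counted at 13 to 166 UMIs, with miR-124-3p the lowest. In pooled plasma, more vesicles from a source and more of the RNA per vesicle cannot be told apart.

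The locus as a whole was a minor part of the miRNA in these preparations. Its 112 members summed to 7804 and 7259 UMIs in the WT libraries and to 10055 and 11325 in the KO libraries. As a share of all miRNA UMIs this was 0.495% (exact 95% binomial interval 0.484 to 0.506%) in WT pool 1, 0.229% (0.224 to 0.234%) in WT pool 2, 0.588% (0.577 to 0.600%) in KO pool 1 and 0.312% (0.306 to 0.318%) in KO pool 2, where intervals here and below cover counting error only. Within each pool number the KO share was the higher, by 1.19 times in pool 1 and 1.36 times in pool 2. On the same scale the median ratio of all 1780 miRNAs counted above 0 in every library was 0.880 and 1.18. The genotypes overlapped, since pool 1 lay above pool 2 in both. Mean shares were 0.362% ± 0.188 for WT and 0.450% ± 0.195 for KO (SD, n = 2 each), and the two-sided exact permutation test gave p = 0.667, where 0.333 is the smallest that 2 against 2 libraries allow.

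Levels within the locus were very uneven. The 5 most abundant members supplied 25.4% and 30.2% of the locus UMIs in the WT libraries, and 34.6% and 33.8% in KO. Only 23 members, 20.5%, had a mean of 100 or more UMIs over the libraries, close to the 19.5% of all miRNAs that did. The median member was counted at 40.5 and 28.5 UMIs in WT and at 43 and 44 in KO, and the median of all miRNAs at 47 and 31, then 43 and 42. Of the members 106 lie on the plus strand, that of the maternally expressed RNAs. The 6 on the minus strand, miR-3544, miR-299b and miR-3071 with both arms each, lie opposite miR-337, miR-299a and miR-136 and were counted at 58 UMIs or fewer in every library.

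Genotypes were first compared with edgeR's quasi-likelihood test across all miRNAs, with counts scaled by TMM, a composition-adjusted library size. All 112 members passed its default filter on low counts. None was called at a Benjamini-Hochberg adjusted p under 0.05 in either direction, where 0.0% of the 1797 miRNAs tested were called. At an unadjusted p under 0.05, 4 members were higher in KO and 0 lower, against 0.835% and 0.946% of all tested in those directions (DESeq2 also had 4 members at that level, all higher, and limma-voom 4, of which 3 were higher). The estimate favoured KO for 64 of 112 members and WT for 48, where 47.4% of all tested favoured KO. The median log2 fold change of the members was 0.11, against -0.03 over all tested.

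Of the 23 that averaged 100 or more UMIs (a limit chosen with the data in view), 15 were higher in KO within both pool numbers (19 in pool 1 and 16 in pool 2) and 3 were lower in both, by TMM-scaled UMIs. Of all 352 miRNAs at that level, 30.7% were higher in both and 22.2% lower in both. Median KO over WT ratios of the 23 were 1.66 in pool 1 and 1.19 in pool 2, where those of the 352 were 1.09 and 0.980. The limit was on the mean of all 4 libraries, so KO counts helped to set it: miR-300-3p, miR-485-5p and miR-485-3p, all among the 15, averaged under 100 UMIs in WT. With the limit on the WT mean alone, 12 of 20 members were higher in both pools and 3 lower in both, against 27.7% and 25.0% of all 332 miRNAs, with median ratios of 1.47 and 1.12. Scaled on total UMIs, 13 of 23 were higher in both and 2 lower, against 33.8% and 14.2% of the 352. Without regard to pool number, 7 of the 23 had both KO levels above both WT levels with TMM, where 10.2% of the 352 did, and 1 had them below, where 3.69% did. With total UMIs these were 3 and 2 of 23, against 7.67% and 2.84%, and no member was among both the 7 and the 3. All 23 are given below, 7 of them (miR-431-5p, miR-668-3p, miR-370-3p, miR-540-3p, miR-433-3p, miR-666-5p and miR-300-3p) chosen after their values were seen. None of the 23 was called by edgeR, and their median log2 fold change was 0.48, against 0.05 for the 352. That median was 0.16 without WT pool 1, 0.22 without KO pool 2, 0.40 without KO pool 1 and 0.70 without WT pool 2, where the 352 had -0.04, -0.06, 0.19 and 0.36. The lone library of a genotype was then taken to vary like the other group. In the same pools the skeletal muscle markers were at 9.22 and 1.61 times the WT share in KO. The stromal markers were at 1.51 and 1.23 times. Both are ratios of summed shares of all miRNA UMIs, not TMM-scaled. In pool 2 the stromal markers parted, with ratios of 0.624 for miR-143-3p and 0.571 for miR-145a-5p. Those of miR-199a-3p, miR-199a-5p and miR-214-3p were 1.87, 1.48 and 1.81. Of the muscle markers, miR-206-3p had 2.42 there, and miR-1a-3p, miR-133b-3p and miR-133a-3p had 1.15, 1.09 and 0.942. In pool 1 these muscle markers had 18.5, 7.04, 5.62 and 6.22, in the same order. The part of muscle and stromal sources in the locus values was not tested.

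Whether the abundant members differ from the others was not tested. Median ratios were 1.11 in pool 1 and 1.06 in pool 2 for members under 30 UMIs, and 1.07 and 1.04 for those from 30 to under 100. Over the 109 members with counts above 0 in every library, 46 were higher in KO in both pools and 23 lower in both, against 24.5% and 27.1% of all 1780 such miRNAs. Scaled on total UMIs the counts were 40 and 18, against 24.4% and 20.8%. In 22 of the 109 both KO levels lay above both WT levels with TMM and in 12 below (9.55% and 11.5% of the 1780), and with total UMIs in 8 and 4 (3.03% and 1.97%). Across members the log2 ratios of the pools had a Pearson r of 0.16 over the 109 and 0.47 over the 23 abundant ones, and across all 352 abundant miRNAs r was 0.07. These are descriptions across miRNAs, which share libraries and are not replicates.

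**Figure D1:**
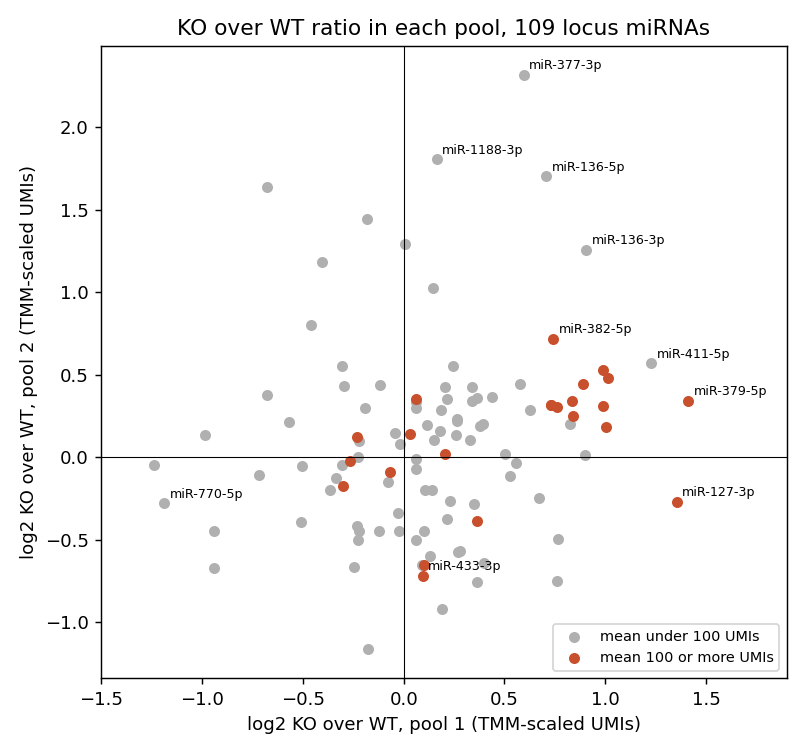
KO over WT ratio (log2, TMM-scaled UMIs) of the 109 locus miRNAs with counts above 0 in every library, in pool 1 (x axis) against pool 2 (y axis), 1 point per miRNA. Of the 23 coloured points (mean of 100 or more UMIs), 15 lie in the upper right, higher in KO in both pools, while the grey points scatter around 0 on both axes.

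The planned split of the members, at gaps over 20 kb, gave 3 groups. In the first, miR-770-5p to miR-370-3p, 17 of 36 members and 4 of 9 abundant ones were higher in KO in both pools by TMM. In the last, miR-379-5p to miR-3072-3p, it was 29 of 75 and 11 of 14. The 11 include miR-300-3p, miR-485-5p and miR-485-3p, which averaged under 100 UMIs in WT. Between the first and last groups lay miR-882 alone. Counts by host transcript, as below, were not in the plan, and of all 1780 miRNAs 24.5% were higher in both pools by TMM and 27.1% lower. By position, the miRNAs of the Meg3 end come first, and its 2 members in Meg3 were lower in KO in both pools. The transcript Meg3, a long noncoding RNA, holds both miR-770 arms in an exon, and miR-770-3p (109563744 to 109563765) was counted at 293 and 82 UMIs in WT pools 1 and 2 and at 234 and 110 in KO. Its WT pool 1 count was the highest, and the genotypes overlapped, with a pool 1 ratio of 0.832 (exact 95% interval 0.698 to 0.991) and a pool 2 ratio of 0.983 (0.732 to 1.32), or 1.17 by total UMIs. The other arm, miR-770-5p, was counted at 76 and 48 UMIs in WT and at 32 and 54 in KO, with ratios of 0.439 (0.281 to 0.671) and 0.824 (0.548 to 1.24). Between Meg3 and Rtl1, outside any annotated host, 7 of 14 members with a ratio were higher in both pools and 6 lower in both. The only abundant one there, miR-540-3p, was counted at 122 and 113 UMIs in WT and at 135 and 156 in KO. One more there, miR-493-5p, was listed at 0 in KO pool 1 and had 25 and 22 UMIs in WT and 22 in KO pool 2.

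The miRNAs that lie antisense to the Rtl1 coding exon, which are perfectly complementary to the Rtl1 mRNA, were mostly higher in KO by TMM. Of 11, 7 were higher in both pools and 0 lower in both, against 24.5% and 27.1% of all 1780 miRNAs. Their median ratios were 1.70 and 1.12. With total UMIs miR-433-3p was lower in both, at 0.946 and 0.725, with both KO levels below both WT levels. On that scale miR-431-3p became higher in both. The most abundant, miR-434-3p (109594565 to 109594586), was counted at 293 and 371 UMIs in WT and at 564 and 575 in KO. In CPM (TMM-scaled UMIs per 1000000) that was 157 ± 66.8 for WT and 226 ± 8.53 for KO (SD, n = 2 each). Both KO levels lay above both WT levels with TMM but not with total UMIs, and the log2 fold change of 0.53 was smaller than its SE of 0.55 (edgeR's quasi-likelihood test, unadjusted p = 0.359). Its pool 1 ratio was 2.01 (1.74 to 2.32) and its pool 2 ratio 1.14 (0.995 to 1.30). Its partner miR-434-5p was counted at 143 and 194 UMIs in WT and at 233 and 327 in KO, with ratios of 1.70 and 1.24. Both arms of this hairpin thus had ratios above 1 in each pool.

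In contrast, miR-127-3p (109592888 to 109592909) was higher in KO in pool 1 and lower in pool 2. It was counted at 174 and 432 UMIs in WT and at 427 and 489 in KO. The pool 1 ratio was 2.56 (2.14 to 3.07) and the pool 2 ratio 0.830 (0.727 to 0.946), which became 0.989 by total UMIs. By TMM its WT pool 1 level stood apart, at 65.0 CPM against 237 in WT pool 2 and 166 and 197 in KO. With total UMIs it was KO pool 1 that stood apart, as the highest. Without WT pool 1 the log2 fold change was -0.36 in place of 0.27. For miR-431-5p counts were 81 and 147 in WT against 157 and 280 in KO, with ratios of 2.02 and 1.40. At the same host, miR-433-3p was counted at 80 and 194 UMIs in WT and at 82 and 161 in KO, and was lower in KO in pool 2 at 0.608 (0.490 to 0.753).

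Both arms of miR-136, the last hairpin opposite Rtl1, were among the 4 members at an unadjusted p under 0.05. For miR-136-5p (109595331 to 109595352) the counts were 30 and 25 for WT against 47 and 111 for KO, and for miR-136-3p (109595366 to 109595387) 25 and 23 against 45 and 75. Each KO count exceeded each WT count, with KO pool 2 the highest for both arms. Ratios of miR-136-5p were 1.63 (1.01 to 2.67) and then 3.25 (2.09 to 5.24) for pools 1 and 2, with a log2 fold change of 1.34 (SE 0.50, edgeR unadjusted p = 0.0217, adjusted p = 0.99995). Ratios of miR-136-3p were 1.88 (1.13 to 3.19) and 2.39 (1.48 to 4.00), with a log2 fold change of 1.13 (SE 0.45, edgeR unadjusted p = 0.029, adjusted p = 0.99995). On the opposite strand miR-3071-3p, which overlaps miR-136-5p, was counted at 40 and 10 UMIs in WT and at 29 and 31 in KO.

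Further along, Rian holds 6 members in introns, among them miR-1188 and miR-370. The arms of miR-1188 parted: miR-1188-5p was counted at 207 and 116 UMIs in WT and at 169 and 172 in KO, with ratios of 0.850 and 1.09, and miR-1188-3p had 53 and 39 against 57 and 186, with ratios of 1.12 (0.757 to 1.66) and 3.50 (2.46 to 5.07). By TMM the KO pool 2 level of miR-1188-3p, 74.9 CPM, stood apart from 3 near-equal libraries at 19.8 to 22.2 CPM. With total UMIs those 3 were not near-equal, and WT pool 2 was the lowest. At 181 and 133 UMIs (WT) and 141 and 161 (KO), miR-370-3p was the abundant member with both KO levels below both WT levels by TMM, at ratios of 0.811 and 0.887. Scaled on total UMIs its pool 2 ratio was 1.06.

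The large cluster that starts at miR-379 ends inside Mirg, and the reference (GENCODE vM21) places its first 50 members upstream of the annotated start of Mirg. Of the 48 there with a ratio, 15 were higher in KO in both pools by TMM and 12 lower in both. That compares with 24.5% and 27.1% of all 1780 miRNAs. Their median ratios were 1.08 and 0.988. Of the 7 abundant ones 4 were higher in both, among them miR-300-3p, which averaged under 100 UMIs in WT. The first hairpin, miR-379-5p (109709065 to 109709085), was counted at 333 and 397 UMIs in WT and at 851 and 687 in KO. Both KO levels lay above both WT levels with TMM but not with total UMIs, at 171 ± 66.3 CPM for WT and 304 ± 38.6 for KO (SD, n = 2 each), with ratios of 2.66 (2.34 to 3.03) and 1.27 (1.12 to 1.44). Its ratio in pool 1 was the highest of any member, and its log2 fold change was 0.83 (SE 0.56, edgeR unadjusted p = 0.169).

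The related miR-411-5p (109710190 to 109710210), whose seed differs from that of miR-379-5p by the substitution given above, was counted at 36 and 42 UMIs in WT and at 81 and 85 in KO, with ratios of 2.34 (1.56 to 3.57) and 1.48 (1.01 to 2.20). Its raw WT counts lay close together, but scaled by TMM the WT levels were 13.5 and 23.1 CPM. The KO levels were 31.5 and 34.2 CPM. The seed mate miR-1193-5p was counted at 39 and 35 UMIs in WT and at 45 and 56 in KO, with ratios of 1.20 and 1.17, both with intervals that include 1. In the same hairpin as miR-411-5p, miR-411-3p had 64 and 145 against 66 and 126 and was lower in KO in pool 2, at 0.637 (0.498 to 0.814).

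Of the other abundant members of that stretch, miR-381-3p was counted at 189 and 142 UMIs in WT and at 301 and 241 in KO, with ratios of 1.66 and 1.24. Its near relative miR-300-3p had 92 and 74 against 158 and 120, with 1.79 and 1.19. Both had KO levels above both WT levels by TMM and not by total UMIs. By contrast miR-543-5p, counted at 414 and 213 UMIs in WT and at 406 and 321 in KO, had ratios of 1.02 (0.889 to 1.17) and 1.10 (0.926 to 1.32), and miR-323-5p, with 154 and 267 against 190 and 279, had 1.29 and 0.766. Here the genotypes overlapped, as they did for miR-666-5p, which had 84 and 141 against 77 and 181 and ratios of 0.955 and 0.941.

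Within Mirg, the noncoding RNA at the far end, all 7 abundant members were higher in KO in both pools by TMM. Of all 352 miRNAs at that level 30.7% were. Among the 7, miR-485-5p and miR-485-3p averaged under 100 UMIs in WT. In all, 14 of the 25 members were higher in both and 2 lower, against 24.5% and 27.1% of all 1780 miRNAs. With total UMIs miR-668-3p, miR-154-5p and miR-412-3p were no longer higher in both. On that scale miR-453, miR-412-5p, miR-3072-5p and miR-3072-3p were lower in both. The most abundant miRNA of the locus, miR-382-5p (109733781 to 109733802, in an intron of Mirg), ranked 85th of the 1809 and was counted at 770 and 782 UMIs in WT and at 1236 and 1754 in KO. Its ratios were alike, 1.67 (1.53 to 1.83) and 1.64 (1.51 to 1.79), or 1.48 and 1.96 by total UMIs. Levels were 359 ± 100 CPM for WT and 594 ± 159 for KO (SD, n = 2 each), which gave a log2 fold change of 0.73 (SE 0.59, edgeR unadjusted p = 0.247). All other members of Mirg were counted below it in every library.

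In an exon of Mirg, miR-134-5p (109734145 to 109734166), which is known from neurons, where it acts on dendritic spines, was counted at 190 and 179 UMIs in WT and at 325 and 309 in KO, with ratios of 1.78 (1.49 to 2.14) and 1.27 (1.05 to 1.53). Close by, miR-485-3p was counted at 116 and 68 UMIs in WT and at 221 and 134 in KO, with ratios of 1.98 and 1.44, and miR-485-5p had 53 and 95 against 101 and 161, with 1.99 and 1.24. The arms of miR-485 thus had like ratios within each pool, although the more abundant arm was 3p in pool 1 and 5p in pool 2 for both genotypes. Counts of miR-541-5p were 132 and 185 in WT against 235 and 344 in KO (ratios 1.85 and 1.36), and those of miR-409-3p 120 and 142 against 191 and 241 (1.66 and 1.24). The seventh abundant member, miR-668-3p, had 197 and 97 against 197 and 169, a ratio of 1.04 in pool 1 and 1.28 in pool 2, and 0.923 in pool 1 by total UMIs.

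**Figure D2:**
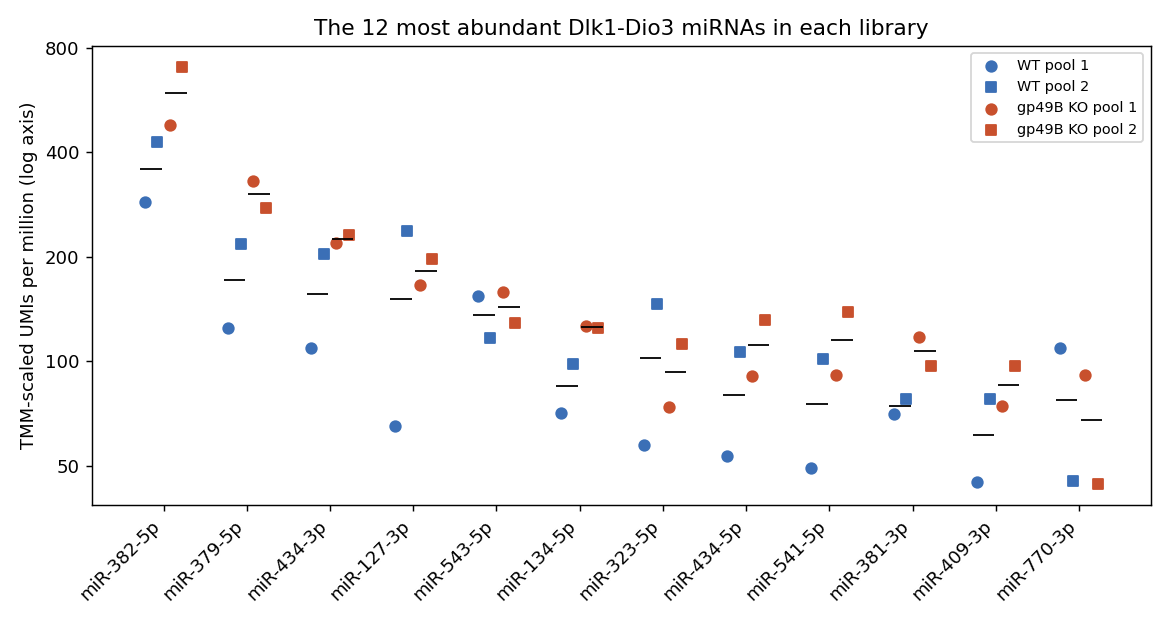
CPM (TMM-scaled, log axis) of the 12 most abundant locus miRNAs in each of the 4 libraries, with a bar at the mean of each genotype (n = 2). Both KO points lie above both WT points for miR-382-5p, miR-379-5p, miR-434-3p, miR-134-5p and miR-381-3p on this scale and for none of them with total UMIs, and WT pool 1 is the lowest point for miR-127-3p.

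**Figure D3:**
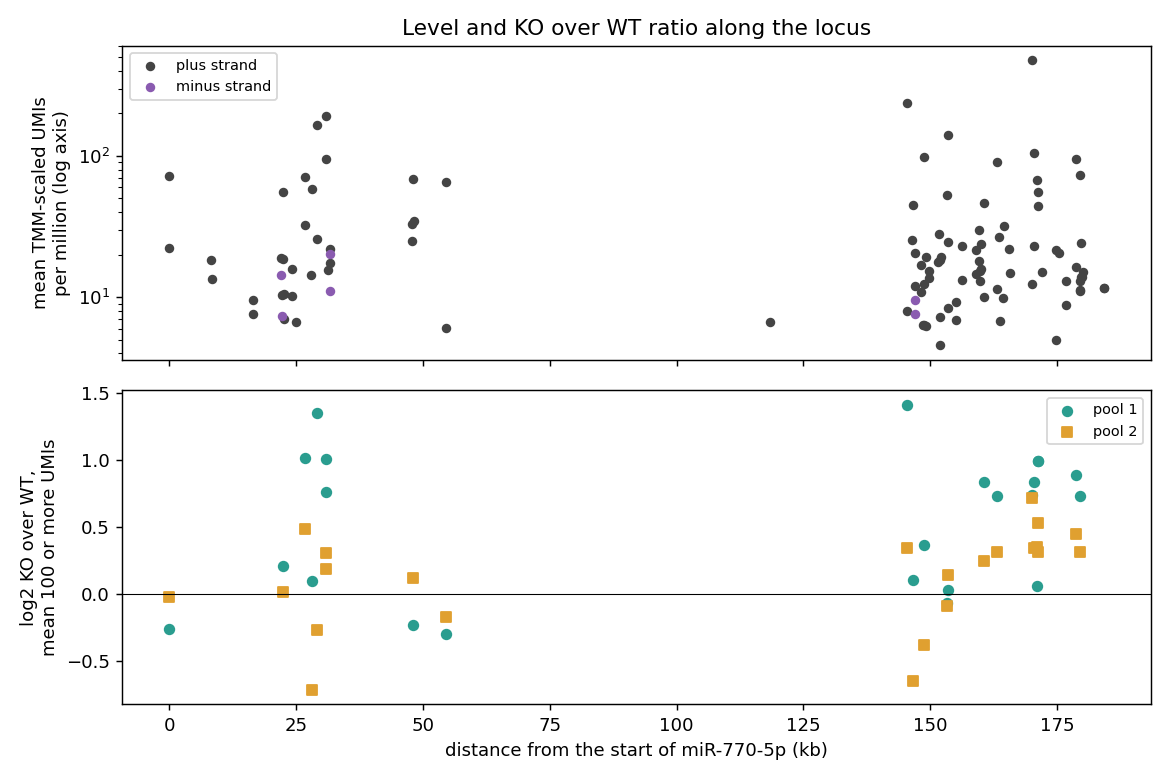
Mean CPM (TMM-scaled) of all 112 members (upper panel, log axis) and the KO over WT ratio (log2) of the 23 abundant members in each pool (lower panel), by distance in kb from the start of miR-770-5p. At the far end, in Mirg, all 7 abundant members lie above 0 in both pools by TMM. With total UMIs miR-668-3p does not. Those of Meg3 and Rian lie near or below 0 in pool 1.

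At low counts, miR-377-3p (109740553 to 109740574, in an exon of Mirg) was counted at 20 and 5 UMIs in WT and at 29 and 34 in KO, with a wide pool 2 ratio of 4.98 (1.94 to 16.3) and a pool 1 ratio of 1.51 (0.826 to 2.82). The lowest unadjusted p of any member, 0.0177 by edgeR's quasi-likelihood test (adjusted p = 0.99995), belonged to miR-679-5p, which was listed at 0 in WT pool 1 and had 5 UMIs in the other WT library, against 18 and 21 in the KO libraries. Since low counts are missing from pool 1, its 0 is only a listing, and no ratio is given. Among the 8 members of lowest p, the only one lower in KO was miR-495-5p, counted at 32 and 21 UMIs in WT and at 16 and 18 in KO, with ratios of 0.521 (0.267 to 0.978) and 0.628 (0.315 to 1.24). Few members passed a ratio of 1.5 in both pools: 4 of 109 with TMM (miR-136-5p, miR-136-3p, miR-382-5p and miR-377-3p), where 1.63% of all 1780 did, and 7 with total UMIs, again against 1.63%. Of the 4, only miR-136-3p passed under both scalings. The 68 members neither abundant nor named by the rule had between 0 and 119 UMIs, with ratios from 0.423 to 1.87 in pool 1 and from 0.446 to 3.11 in pool 2.

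A hairpin yields a 5p and a 3p arm, of which usually the guide strand is kept in Argonaute and the other is degraded. Both arms were listed for 53 hairpins. The 5p arm was the more abundant in 28 and the 3p arm in 25, where miR-3072, whose arms tied, is counted under 3p. The same arm led in all 4 libraries in 29. The leading arm was the same in all 4 libraries for 17 of the 20 hairpins whose leading arm had a mean of 100 or more UMIs, the exceptions being miR-1188, miR-411 and miR-485. Hairpins with a nearly pure 5p arm were miR-382 (94.9% and 97.9% of its UMIs in WT, 96.8% and 98.7% in KO) and miR-379 (94.1% and 95.7%, then 97.4% and 98.1%). Averaged over the 53 hairpins, the 5p share was 48.0% and 53.9% in WT and 49.5% and 53.4% in KO, which overlapped (two-sided exact permutation p = 1, where 0.333 is the smallest possible).

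In those 20 hairpins the leading arm was higher in KO in both pools for 12 and the other arm for 6. The hairpins were chosen on the mean of all libraries, so KO counts helped to set the choice. Among the 12 leading arms, miR-300-3p and miR-485-3p averaged under 100 UMIs in WT. Of all miRNAs at the level that chose the leading arms 30.7% were higher in both, and of all miRNAs at any level 24.5%. Median ratios of the leading arms were 1.66 and 1.12, and those of the other arms 1.10 and 0.978. The other arms were counted at a median of 42.4 mean UMIs. For example, miR-382-3p was counted at 41 and 17 UMIs in WT and at 41 and 23 in KO (ratios 1.04 and 0.991), and miR-379-3p 21 and 18 against 23 and 13 (1.14 and 0.529). Within both pools the leading arm had the higher ratio in 12 of the 20 hairpins and the other arm in 4, miR-411, miR-1188, miR-433 and miR-370. As a share of its hairpin, miR-411-5p was 36.0% and 22.5% in WT and 55.1% and 40.3% in KO, each share resting on 100 to 211 UMIs, and KO pool 2 lay near WT pool 1.

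**Figure D4:**
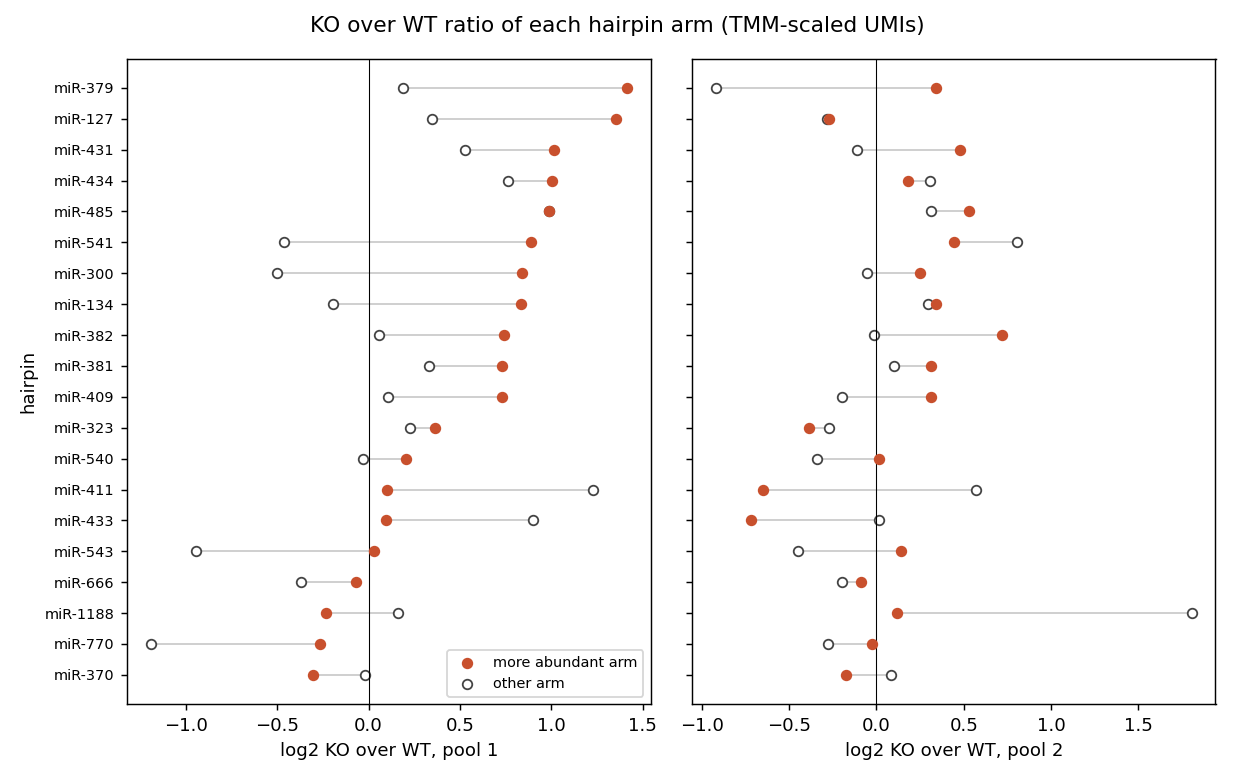
KO over WT ratio (log2, TMM-scaled UMIs) in pool 1 (left) and pool 2 (right) of both arms of 20 hairpins. Their leading arm had a mean of 100 or more UMIs over all libraries, WT and KO. Filled points are the leading arm and open points the other. Leading arms had medians of 1.66 and 1.12 as plain ratios and the others 1.10 and 0.978, and miR-411, miR-1188, miR-433 and miR-370 show the reverse order in both pools.

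Other imprinted loci were set beside these members. Of the 10 on a list of other imprinted loci (miR-675 of H19, miR-483 of Igf2, miR-335 of Mest, miR-296 and miR-298 of the Gnas region), 0 were higher in KO in both pools (1 with total UMIs), 2 were lower in both, and 0 were called by edgeR, with 0 at an unadjusted p under 0.05. Their median log2 fold change was -0.03. The most abundant, miR-296-5p, was counted at 488 and 438 UMIs in WT and at 351 and 555 in KO (ratios 0.749 and 0.929), and miR-298-5p 264 and 194 against 182 and 189 (0.718 and 0.714). The Sfmbt2 locus on chromosome 2, the other large imprinted miRNA cluster of the mouse, had 28 listed members, of which 26 had counts above 0 in every library, and 5 of these (19.2%) were higher in both pools and 8 lower, near the 24.5% and 27.1% of all miRNAs. With total UMIs 7 were higher and 7 lower. At a mean of 100 or more UMIs it had 3 members, 0 of them higher in both. Whether these lists differ from the Dlk1-Dio3 members was not tested.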

How the data were processed

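Small RNA of exosomes precipitated from plasma with ExoQuick was made into libraries with the QIAseq miRNA kit, which carries UMIs, per the labels' protocols. Per the submitters' processing notes, FastQC 0.11.9 was used and the build was GRCm38. The aligner and counter are stated in none of the sources used here. UMI counts as deposited, whole numbers that the authors did not normalize, were used, with deposited read counts as an alternative. The authors also deposited log2 values, which equal log2 of the UMI count plus a constant per library (-0.0276 and 0.215 for WT, 0.0296 and -0.209 for KO) and were used only for the positions beside them. Those of both pool 2 libraries carry a column name unlike their label. They were assigned by label, and their UMI counts equal that library's in the joint table.

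All 1809 miRNAs listed in every library were fitted with edgeR 4.0.16 in R 4.3.3 (default filter, TMM factors, quasi-likelihood test with Benjamini-Hochberg adjustment over the 1797 tested). Effective library sizes also scaled the ratios within pool numbers, whose exact 95% intervals are conditional binomial. Nothing says that the plasma of a genotype's pools came from separate experiments, so p-values measure the spread between these libraries. Alternatives used limma 3.58.1, DESeq2 1.42.0 and other scalings, filters and libraries. The fit was first tested on counts simulated at a common dispersion of 0.127. It found 6% of 2-fold, 52% of 4-fold, 96% of 8-fold and 86% of 16-fold changes, with 5 false calls. An absent call thus says little about changes of 2-fold or less, and 4-fold changes were missed about as often as found. The simulated libraries were drawn independently and, unlike those of pool 1, kept their low counts. Other steps used SciPy 1.17.1, pandas 2.3.3 and Python 3.11.15. Host genes are from GENCODE vM21.

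The members, marker lists and rule for names were chosen with earlier results of these data known. Members named were the 12 most abundant by CPM, the 8 of lowest unadjusted p, their other arms and seed mates, of which some are given only in counts. The limit of 100 UMIs was chosen after the data were seen.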

Additional observations from a re-analysis of the deposited data

How the results depend on the processing

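No member was called under any full-data alternative run, including an adjusted p under 0.1. Fits with a library left out rest on 1 library of a genotype, so their p-values cannot be weighed. Beside their fold changes only a range of counts is given, from which nothing is concluded, and their calls are left out. The count of members at an unadjusted p under 0.05, 4 in the main comparison, was 0 with total UMIs, 1 with TMM factors from miRNAs of 100 or more UMIs, 8 with pool number as a replicate block, and 2 to 9 with a library left out. Over all miRNAs tested the count was 32 in the main comparison. It was 5 with total UMIs, 18 with TMM from abundant miRNAs and 78 with the replicate block. For the fits with a library left out it is not given. The locus median log2 fold change, 0.11, was 0.13 with size factors of DESeq2 type, 0.053 with total UMIs, -0.028 with TMM from abundant miRNAs (which moved the median of all miRNAs to -0.13), 0.14 with DESeq2 and 0.15 with read counts, and ranged from 0.062 to 0.19 with a library left out. Members with higher estimates numbered 54 to 73 of 112 over all alternatives. Beside the 54, with TMM from abundant miRNAs, 628 of all 1797 miRNAs were higher. Beside the 73, with read counts, 894 of 1809 were.

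The abundant members kept a median log2 fold change above 0 under every fit run, from 0.16 to 0.70, with 15 to 18 of 23 estimates higher. For all 352 miRNAs at that level the median ran from -0.06 to 0.36. Beside the 15, with TMM from abundant miRNAs, 156 of the 352 were higher. Beside the 18, without WT pool 2, 254 were. The percentage higher in both pools, 65.2%, was 56.5% with total UMIs, 65.2% with DESeq2-type size factors, 52.2% with read counts and 60.0% with the 100 UMI limit on the WT libraries, the last chosen after seeing the data. Over all miRNAs at that level it was 30.7% in the main comparison. Under these alternatives, in the same order, it was 33.8%, 33.8%, 29.5% and 27.7%. The KO over WT ratio of the locus share, 1.24, was 1.14 when red blood cell and liver markers were left out of the total. It was 1.19 without the most abundant miRNA and 1.20 without the most abundant member. It ranged from 0.862 to 1.97 with a library left out, which leaves the pool numbers unbalanced. The difference in 5p share, 0.504 points, ranged from -2.45 to 3.46 likewise. Of 260 alternative values for 20 named members, 10 changed sign and the rest did not: miR-127-3p without WT pool 1 (-0.36 to 1.48 over the libraries left out), miR-543-5p with total UMIs (-0.016), with TMM from abundant miRNAs (-0.046) and without WT pool 2 or KO pool 1 (-0.11 to 0.32), miR-323-5p with total UMIs (0.048) and without WT pool 2 or KO pool 1 (-0.63 to 0.70), and miR-770-3p without WT pool 1 or KO pool 2 (-0.79 to 0.61).

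Labels do not say that the pool numbers pair libraries. Deviations from the group means correlated at 0.527 between same-numbered libraries across all miRNAs, and the replicate block left 1 residual degree of freedom. It moved the count at an unadjusted p under 0.05 from 4 to 8 for the members and from 32 to 78 for all miRNAs, and called no member. Depth limits most members: 89 of 112 averaged under 100 UMIs, and at the 52.5 of miR-770-5p the interval of its pool 2 ratio ran from 0.548 to 1.24.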
